A study of Mus musculus with 20 samples.

Results

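The genes of the blood vessel wall were examined in mouse hippocampus as 35 listed genes, 28 of them known from endothelial cells and 7 from mural cells, the pericytes and smooth muscle cells that wrap the endothelial tube. They were listed by name, with earlier results of these data known, out of 57126 gene identifiers in the count files. All 35 passed the filter on low counts that left 18648 genes for testing. RNA of the hippocampus was sequenced from 20 male C57BL/6 mice, 5 in each of 4 groups. Mice of 2 groups were homozygous for the GRA knockin, a germline change of exon 2 of the glucocorticoid receptor gene Nr3c1. In it the start codons from which shorter N-terminal forms begin read ATC in place of ATG, which leaves full-length GRA. The other 2 groups were wild-type at that gene. Within each genotype 1 group had received dexamethasone, a synthetic glucocorticoid, at 1 mg/kg into the peritoneum, and the other the vehicle, phosphate-buffered saline (PBS), and tissue was taken 6 h later. All mice of all 4 groups had lost their adrenal glands at about 2.5 months of age, 2 weeks before the injection, so the PBS groups lacked adrenal glucocorticoid too. The receptor change was present in every cell of the knockin animals, and the whole hippocampus was used, so vessel cells are a minor part of each RNA sample.

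Brain endothelial cells are joined by tight and adherens junctions, which together with selective transporters form the blood-brain barrier. Their growth and rest are set by receptor tyrosine kinases on their surface: vascular endothelial growth factor acts through the receptors encoded by Kdr and Flt1, and the angiopoietins through Tek (Tie2) with its partner Tie1. Pericytes are held to the tube by platelet-derived growth factor B, which endothelial cells release and the pericyte receptor Pdgfrb binds. Glucocorticoids are known to tighten the barrier and to restrain angiogenesis, and the receptor is present in endothelial cells and in their neighbours.

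Between 11493014 and 48267708 read pairs per library were assigned to genes. Levels are given as CPM, counts per 1000000 assigned pairs, scaled between libraries by the trimmed mean of M values, with SD over mice. The targeted gene Nr3c1 read 96.1 to 117 CPM in knockin dexamethasone, 142 to 197 in knockin PBS, 88.6 to 107 in wild-type dexamethasone and 118 to 171 in wild-type PBS mice, and gene-level counts cannot show the mutated start codons. The glucocorticoid target Fkbp5 was higher under dexamethasone over both genotypes, with a log2 fold change of 1.60 (SE 0.21, adjusted p = 3.13e-05 by edgeR). The endothelial markers Cldn5, Pecam1, Flt1, Cdh5 and Tie1 and the pericyte markers Pdgfrb, Rgs5, Abcc9 and Vtn were read in all 20 libraries. Some libraries were often at the end of their group. Knockin PBS mouse 4 had the lowest value of its group for 20 of 35 members, wild-type PBS mouse 4 the highest for 19 and knockin dexamethasone mouse 5 the highest for 18, with other members at the opposite end in some of them. Transcripts of tissue outside the hippocampus differed between libraries as well: 11 liver markers summed to 225 and 126 CPM in wild-type PBS mice 1 and 2 and to 4.88 to 51.6 CPM elsewhere, and 7 choroid plexus markers to 1404 CPM in knockin dexamethasone mouse 2 and 1764 CPM in wild-type PBS mouse 4, and to 36.5 to 593 CPM elsewhere. Calls that ended without the liver or the choroid plexus libraries are named with the results.

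The promoters of 4 members whose levels differed with treatment in the tests below are shown because the results turn on these genes, Mcam and Tek among those that were lower and Ly6c1 and Robo4 among those that were higher. Each is the 250 bases before the annotated start, 5′ to 3′ on the gene's strand, from RefSeq on build GRCm38.p6, and capitals mark the letters AGAACA, a half-site of the glucocorticoid receptor, or AGGAAG, a core bound by ETS factors such as the member Erg, on either strand.
Mcam (chr9:44134408-44134657, plus strand): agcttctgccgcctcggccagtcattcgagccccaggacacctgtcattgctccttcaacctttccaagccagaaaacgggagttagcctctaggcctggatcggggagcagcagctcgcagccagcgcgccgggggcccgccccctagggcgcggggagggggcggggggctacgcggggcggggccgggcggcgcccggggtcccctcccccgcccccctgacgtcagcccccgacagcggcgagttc
Tek (chr4:94739039-94739288, plus strand): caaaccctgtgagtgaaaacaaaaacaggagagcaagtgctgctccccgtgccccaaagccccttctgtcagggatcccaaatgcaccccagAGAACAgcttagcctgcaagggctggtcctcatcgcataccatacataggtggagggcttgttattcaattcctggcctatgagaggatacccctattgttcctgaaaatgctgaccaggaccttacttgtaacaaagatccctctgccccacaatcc
Ly6c1 (chr15:75048664-75048913, minus strand): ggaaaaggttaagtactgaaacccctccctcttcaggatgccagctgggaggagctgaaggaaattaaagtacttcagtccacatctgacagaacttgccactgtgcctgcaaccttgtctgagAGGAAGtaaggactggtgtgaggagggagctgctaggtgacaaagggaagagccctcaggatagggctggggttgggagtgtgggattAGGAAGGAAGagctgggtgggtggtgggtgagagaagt
Robo4 (chr9:37401722-37401971, plus strand): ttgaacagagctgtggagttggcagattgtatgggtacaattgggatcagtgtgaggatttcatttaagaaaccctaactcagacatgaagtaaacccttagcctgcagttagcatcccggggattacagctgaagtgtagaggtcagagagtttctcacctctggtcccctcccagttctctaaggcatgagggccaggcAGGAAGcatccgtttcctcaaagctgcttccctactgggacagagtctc
The Mcam window held neither motif. Tek held 1 AGAACA, Robo4 held 1 AGGAAG and Ly6c1 held 3 AGGAAG, a pair of which overlap. Ly6c1 has 2 annotated windows, and the one with more matches is printed. RefSeq windows were at hand for 22 of the 35 members. They have 29 windows, of which 5 held the half-site letters AGAACA, as did 16.1% of all 32851 windows. Those were windows of Acta2, Cav1, Egfl7, Tek and Vtn. The letters AGGAAG were in 11 of the 29 windows and in 29.5% of all windows. The matches describe these letters in these windows and nothing more.

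Levels per length spanned from 39.0 to 0.604 CPM per kilobase of exon between members. The pericyte genes Vtn, which encodes the matrix protein vitronectin, and Rgs5, a regulator of G-protein signalling, led with 39.0 ± 5.84 and 34.4 ± 3.11 CPM per kilobase (SD over 20 libraries). Itm2a, a small membrane protein of brain endothelium, followed with 28.0 ± 2.55 and Cldn5, the main claudin of brain endothelial tight junctions, with 27.2 ± 3.24. At the low end were the smooth muscle gene Tagln with 0.743 ± 0.225 and the angiopoietin gene Angpt2 with 0.604 ± 0.162. Some members share exonic length with other genes, such as Tagln with Gm48529 (55.0%), Nos3 with Gm15587 (25.2%) and Ackr1 with Cadm3 (21.5%). The place of such members in the order is uncertain. Of the 34 neighbouring pairs in this order, 25 differed by no more than the larger of their 2 SDs. Among mice of the same group the coefficient of variation was lowest for Tjp1, at 3.91%, and highest for Tagln, at 29.7%, and the smooth muscle gene Acta2 ranged 3.22-fold over the 20 libraries.

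**Figure D1:**
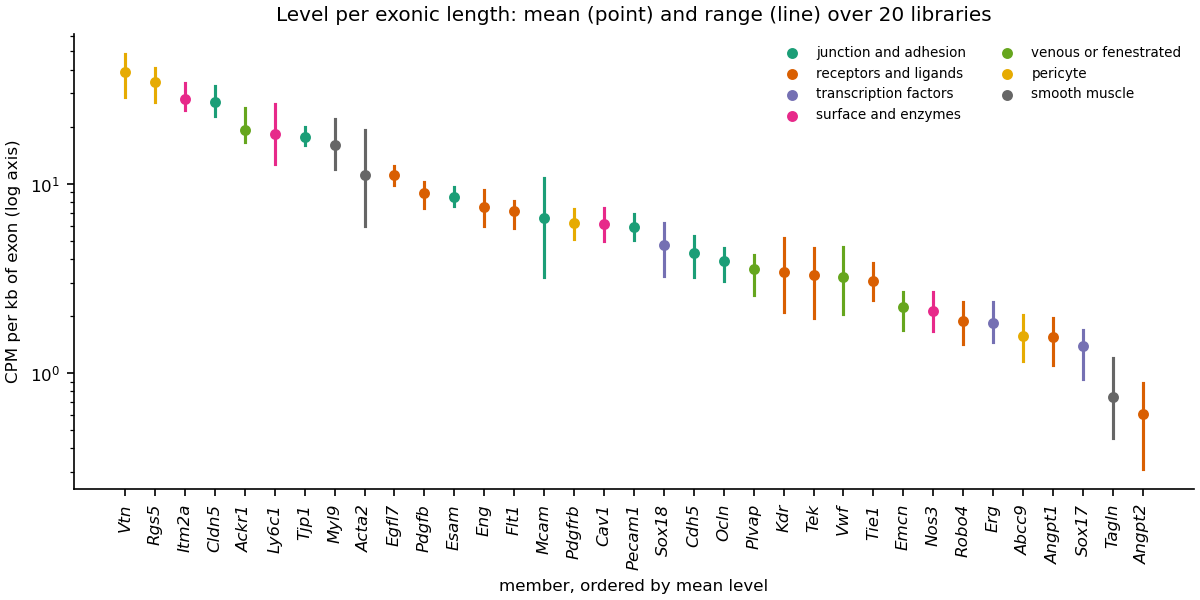
Level of each of the 35 members as CPM per kilobase of exon, on a log axis, ordered by mean; points are means and lines the range over 20 libraries, coloured by role. Vtn and Rgs5 stand at the top, Tagln and Angpt2 at the bottom, and the long lines belong to Acta2, Mcam and other genes that varied between libraries.

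The first question was which vessel wall genes differ between dexamethasone and PBS. Over both genotypes together, 15 of 35 members passed the test (edgeR's quasi-likelihood test, Benjamini-Hochberg adjusted p below 0.05 over all genes tested), which is 42.9% of the members against 18.2% of all genes. Of these, 10 were lower under dexamethasone, where 8.41% of all genes were lower, and 5 were higher, where 9.79% of all genes were higher. The melanoma cell adhesion molecule gene Mcam and the angiopoietin receptor gene Tek had the largest falls, and the surface antigen gene Ly6c1 the largest rise among the members. The median log2 fold change was -0.11 over the 35 members and 0.00 over all genes, and 27 of 35 members were below 0, where 50.2% of all genes were. The groups did not overlap for Mcam and Ly6c1, 2 members of 35, where 3.9% of all genes did not overlap. Because tissue was sequenced whole, fewer vessel cells and less RNA of a gene per cell cannot be told apart.

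Taken by genotype, 11 members passed in knockin mice, which is 31.4% of the members against 10% of all genes. Of these, 7 were lower, as were 4.71% of all genes, and 4 higher, as were 5.28%. In wild-type mice 6 passed, which is 17.1% against 9.21% of all genes. Of these, 3 were lower, as were 3.94% of all genes, and 3 higher, as were 5.27%. Whether or not they passed, 29 members were below 0 in knockin and 23 in wild-type mice, against 49.3% and 50.1% of all genes. Mcam, Tek and Ly6c1 passed in both genotypes, in the same direction, which is 3 of 35 members against 6.77% of all genes. The groups did not overlap for Mcam, Cdh5 and Ly6c1 in knockin mice, 3 of 35 members against 8.68% of all genes, and for Mcam, Tek and Ly6c1 in wild-type mice, 3 of 35 against 8.22%. The sign of the log2 fold change was shared by the 2 genotypes for 29 of 35 members and for 70.2% of all genes tested. All 15 members called over both genotypes had the same sign in each. That call is on the mean of the 2 responses and so favours a shared sign, which makes this no separate result. The counts moved with single libraries. Leaving out 1 mouse of the genotype gave 4 to 13 knockin calls and 2 to 7 wild-type calls. All genes called then ran from 1501 to 1955 in knockin and from 1288 to 1692 in wild-type mice, of 18771 to 18904 tested. The knockin count was 4 without PBS mouse 1 or dexamethasone mouse 2, and 5 without PBS mouse 2. It was 6 without dexamethasone mouse 3 or 5, 7 without PBS mouse 3 or dexamethasone mouse 4, and 13 without PBS mouse 4. The lowest wild-type counts were 2 without PBS mouse 3 and 3 without dexamethasone mouse 1 or 2. All genes passing were 1288 of 18788 without PBS mouse 3, and 1410 of 18787 or 1431 of 18890 without those dexamethasone mice. The share of members was near that of all genes there. Without wild-type PBS mouse 4 and knockin dexamethasone mouse 2, the libraries with choroid plexus transcripts, there were 4 calls in knockin, 3 in wild-type and 11 over both genotypes. Of 19055 genes tested there, 1485, 1439 and 2872 passed, so the wild-type share of members was near that of all genes. Of the knockin calls that ended, Abcc9, Ackr1, Flt1, Ocln, Pdgfrb, Sox17 and Tek had edgeR adjusted p between 0.0756 and 0.121 there, and of the wild-type calls Erg, Tek and Tie1 between 0.0518 and 0.0982. Over both genotypes Kdr, Eng, Itm2a and Vtn ended there, with edgeR adjusted p between 0.0542 and 0.0837. Without wild-type PBS mice 1 and 2, the libraries with liver transcripts, the calls of Erg over both genotypes, of Erg and Robo4 in wild-type and of Tek in knockin mice ended, with edgeR adjusted p between 0.0531 and 0.210. A call in 1 genotype alone does not show that the genotypes differ, and the difference of the responses had an edgeR adjusted p of 1.00 for each of the 35 members.

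**Figure D2:**
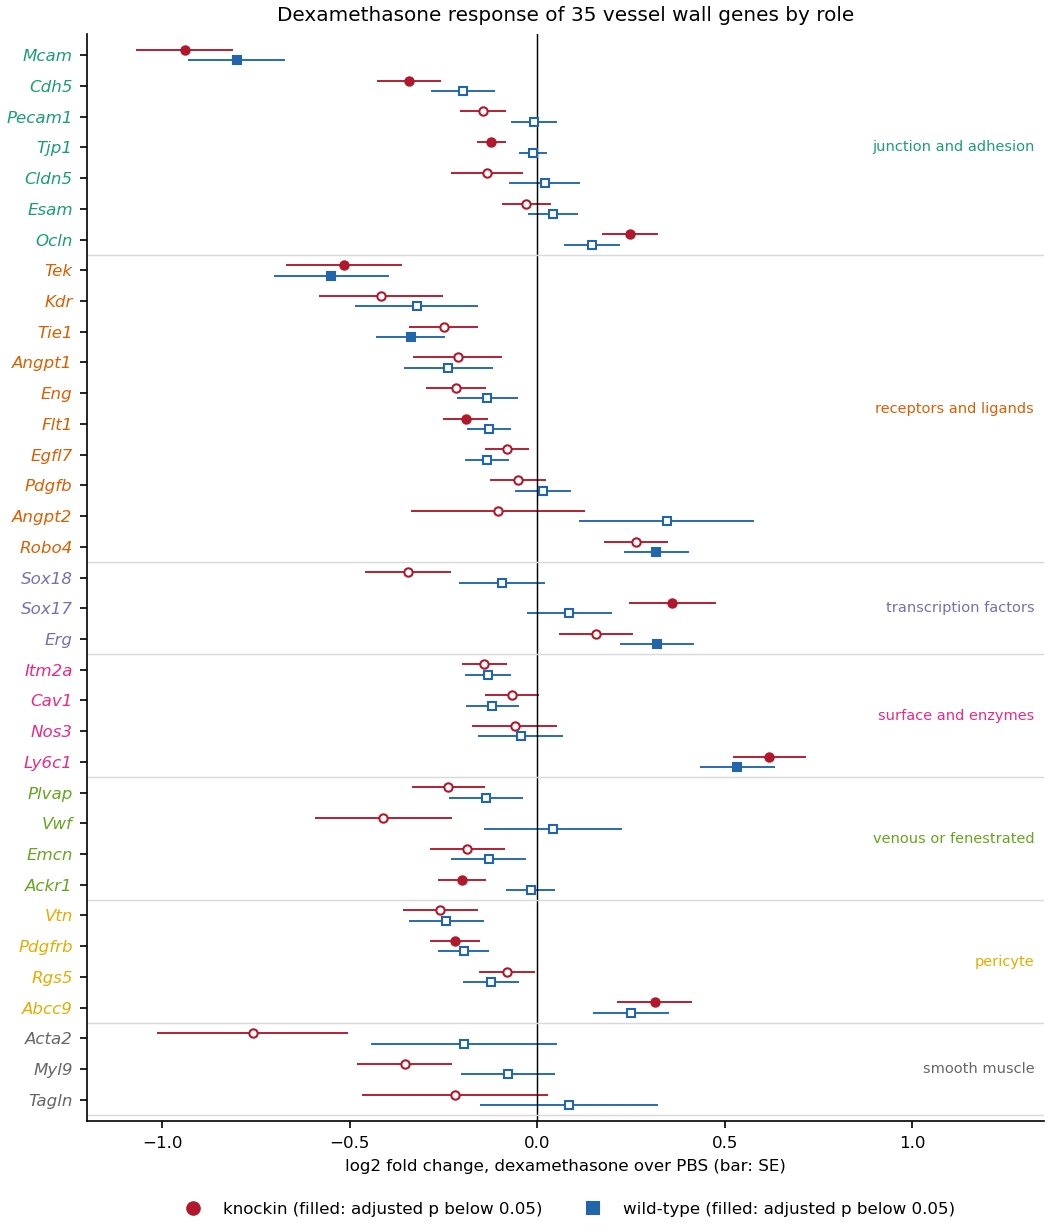
Log2 fold change of dexamethasone over PBS for each member, with SE, in knockin (red circles, upper) and wild-type mice (blue squares, lower), grouped by role; filled symbols passed at adjusted p below 0.05. Mcam and Tek lie left of 0 and Ly6c1 right of 0 in both genotypes.

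Among the 7 junction and adhesion genes, Mcam and Cdh5 were lower under dexamethasone and Ocln was higher, and 4 did not pass over both genotypes. Mcam (chromosome 9, 44045859 to 44054024, plus strand, mm39) encodes CD146, an adhesion molecule of endothelial junctions that pericytes also carry. It read 15.8, 13.1, 12.2, 9.61 and 16.3 CPM in the 5 knockin dexamethasone mice, against 25.3, 23.7, 31.9, 23.1 and 25.3 CPM in the 5 knockin PBS mice. In wild-type mice it read 12.5, 12.7, 17.3, 13.4 and 16.3 CPM under dexamethasone, against 26.2, 21.7, 26.1, 27.3 and 25.9 CPM under PBS. Every dexamethasone library was thus below every PBS library, 9.61 to 17.3 against 21.7 to 31.9 CPM. The fall was 45.3% over both genotypes, a log2 fold change of -0.87 (SE 0.09, adjusted p = 6.17e-07 by edgeR), with -0.94 (SE 0.13, adjusted p = 3.84e-05 by edgeR) in knockin and -0.80 (SE 0.13, adjusted p = 0.000287 by edgeR) in wild-type mice. It passed under every alternative run.

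Cdh5 (chromosome 8, 104828257 to 104871143, plus strand) encodes VE-cadherin, the adhesion protein of endothelial adherens junctions. It read 14.4, 12.8, 13.6, 14.9 and 15.6 CPM in knockin dexamethasone, against 16.4, 16.7, 20.4, 17.0 and 21.2 CPM in knockin PBS mice, and these groups did not overlap. In wild-type mice it read 14.5, 14.9, 20.3, 16.0 and 17.8 CPM under dexamethasone, against 18.4, 19.8, 18.1, 20.5 and 19.6 CPM under PBS, where the groups overlapped through dexamethasone mouse 3. The log2 fold change was -0.27 over both genotypes (SE 0.06, adjusted p = 0.00177 by edgeR) and -0.34 in knockin mice (SE 0.09, adjusted p = 0.00848 by edgeR). In wild-type mice it was -0.20 and did not pass (edgeR adjusted p = 0.176), and the difference between the genotypes was -0.14 (SE 0.12, adjusted p = 1.00 by edgeR). Wild-type dexamethasone mice 3 and 5, the highest of their group for Cdh5, Tek and Vtn, also had the most meningeal fibroblast transcripts of that group: 8 markers summed to 193 and 148 CPM there, against 71.6 to 109 CPM in the other 3, and the part of this in the result was not tested.

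Ocln (chromosome 13, 100633015 to 100689226, minus strand) encodes the tight junction protein occludin. It read 17.4, 19.3, 18.6, 15.5 and 18.1 CPM in knockin dexamethasone, against 14.3, 15.0, 15.4, 13.0 and 17.6 CPM in knockin PBS mice. In wild-type mice it read 17.7, 18.9, 16.6, 15.7 and 18.0 CPM under dexamethasone, against 14.4, 16.5, 16.3, 17.4 and 14.4 CPM under PBS. The groups overlapped in both genotypes, although 4 of the 5 knockin dexamethasone values lay at or above 17.4 CPM and 4 of the 5 knockin PBS values at or below 15.4 CPM. Ocln was higher by 0.20 on the log2 scale over both genotypes (SE 0.05, adjusted p = 0.00898 by edgeR). The knockin value alone was 0.25 (SE 0.07, adjusted p = 0.0322 by edgeR), and that call was lost without dexamethasone mouse 2, 3 or 5 or PBS mouse 1, 2 or 4 (log2 0.20 to 0.25, adjusted p = 0.0574 to 0.107 by edgeR), and also in a fit of only the libraries compared (adjusted p = 0.0624 by edgeR).

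Tjp1 (chromosome 7, 64945913 to 65020987, minus strand) encodes ZO-1, the scaffold that ties junction proteins to actin, and many cell types besides endothelium use it. It read 115, 123, 122, 125 and 114 CPM in knockin dexamethasone, against 124, 127, 126, 141 and 133 CPM in knockin PBS mice. Wild-type mice had 123, 127, 127, 126 and 129 CPM under dexamethasone, against 125, 132, 131, 124 and 123 CPM under PBS. The knockin groups overlapped by a narrow margin and the wild-type groups almost wholly. Tjp1 fell by 8.14% in knockin mice, or -0.12 on the log2 scale (SE 0.04, adjusted p = 0.0344 by edgeR), a call that was lost without dexamethasone mouse 1 or 5 or PBS mouse 4 or 5 (log2 -0.09 to -0.12, adjusted p = 0.0668 to 0.125 by edgeR), and also with no low-count filter (adjusted p = 0.0815 by edgeR) and in a fit of only the libraries compared (adjusted p = 0.0549 by edgeR). Over both genotypes Tjp1 did not pass (-0.07, edgeR adjusted p = 0.0836).

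The claudin gene Cldn5 (chromosome 16, 18595597 to 18597012, plus strand) and Pecam1 (chromosome 11, 106545043 to 106641454, minus strand), which encodes the endothelial adhesion molecule CD31, did not pass. Cldn5 read 36.0, 34.6, 32.2, 33.9 and 39.2 CPM in knockin dexamethasone and 36.7, 40.4, 41.4, 36.6 and 38.1 CPM in knockin PBS mice. It read 33.9, 45.6, 43.1, 32.5 and 46.0 CPM in wild-type dexamethasone and 36.3, 34.8, 38.0, 46.3 and 44.3 CPM in wild-type PBS mice. The wild-type groups spread widely, over 32.5 to 46.0 CPM under dexamethasone and 34.8 to 46.3 CPM under PBS, and all groups overlapped. Pecam1 read 21.4, 22.5, 20.7, 24.0 and 24.1 CPM in knockin dexamethasone and 23.6, 23.7, 26.5, 23.2 and 28.7 CPM in knockin PBS mice. Wild-type mice had 23.6, 25.2, 26.4, 23.1 and 26.5 CPM under dexamethasone and 25.9, 25.2, 23.7, 27.0 and 24.4 CPM under PBS, and these groups overlapped too. The log2 fold change over both genotypes was -0.06 (SE 0.07) for Cldn5, -0.08 (SE 0.04) for Pecam1 and 0.01 (SE 0.05) for Esam, which encodes another endothelial adhesion molecule and kept within 14.2 to 17.8 CPM in all 20 libraries.

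**Figure D3:**
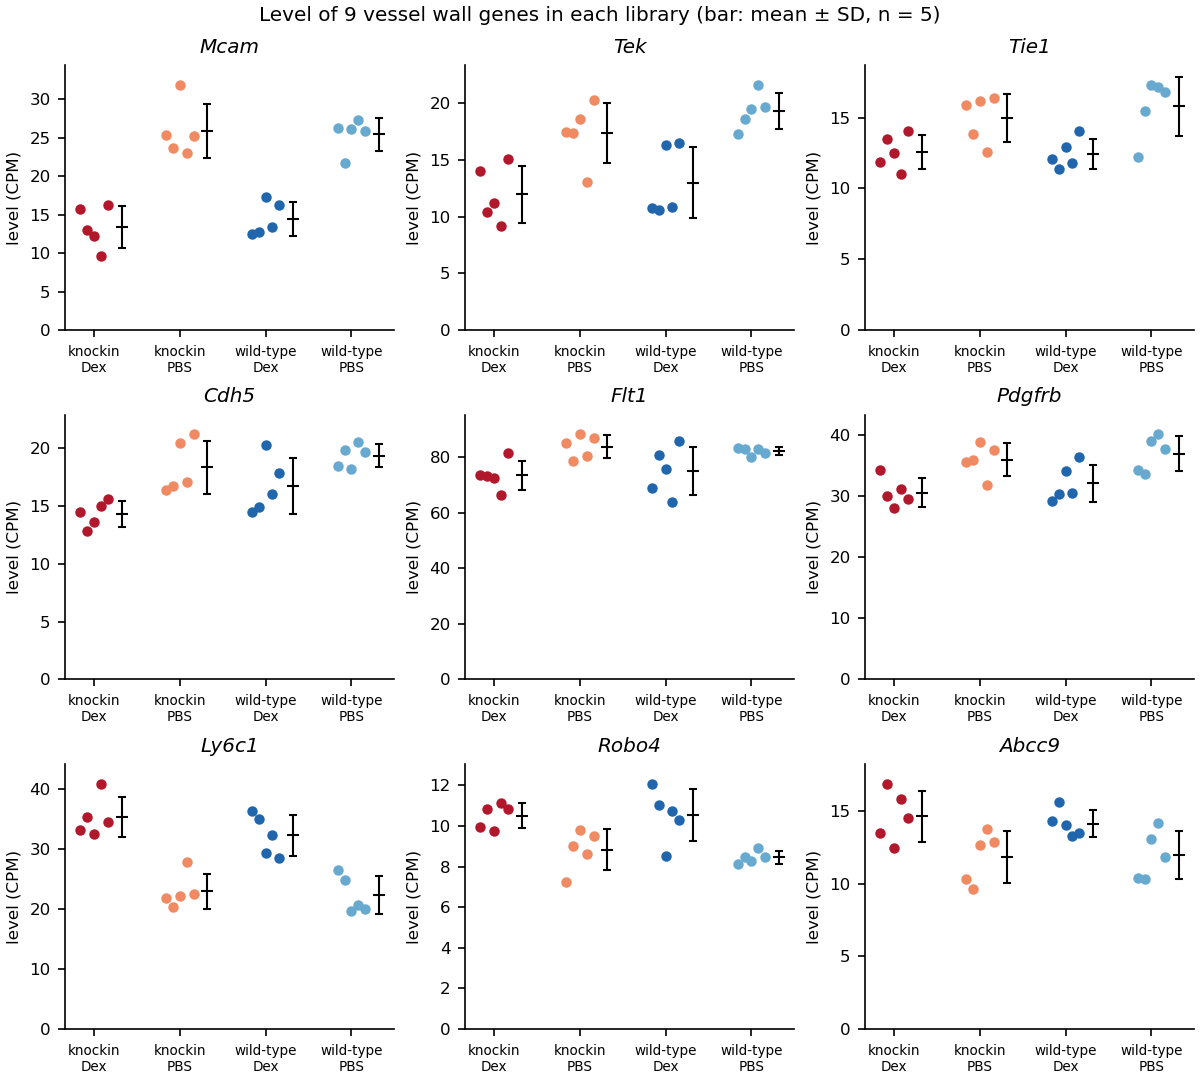
Level in CPM of 9 members in each library, as points, with the mean and SD of each group of 5 beside them; knockin groups are red and wild-type groups blue, dexamethasone dark and PBS light, and each axis starts at 0. Mcam lies lower in all 10 dexamethasone libraries than in any PBS library and Ly6c1 higher, whereas for the other 7 genes the 10 dexamethasone and 10 PBS libraries overlap.

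Among the 10 receptor and ligand genes, 5 receptors were lower under dexamethasone over both genotypes (Kdr, Flt1, Tek, Tie1 and Eng), the receptor gene Robo4 was higher, and the 3 ligand genes Angpt1, Angpt2 and Pdgfb and the secreted factor gene Egfl7 did not pass. Tek (chromosome 4, 94627526 to 94763213, plus strand) encodes Tie2, the receptor that angiopoietins bind. It read 14.0, 10.4, 11.2, 9.15 and 15.1 CPM in knockin dexamethasone, against 17.5, 17.4, 18.6, 13.1 and 20.3 CPM in knockin PBS mice. Wild-type mice had 10.8, 10.6, 16.3, 10.8 and 16.5 CPM under dexamethasone, against 17.3, 18.6, 19.5, 21.6 and 19.7 CPM under PBS. The wild-type groups did not overlap, and the knockin groups overlapped through PBS mouse 4. Tek fell by 30.9% over both genotypes, a log2 fold change of -0.53 (SE 0.11, adjusted p = 0.00154 by edgeR). The log2 fold changes of -0.52 in knockin (edgeR adjusted p = 0.0399) and -0.55 in wild-type mice (edgeR adjusted p = 0.0297) passed too. The knockin call was lost without dexamethasone mouse 2, 3 or 4 or PBS mouse 1, 2, 3 or 5 (log2 -0.43 to -0.51, adjusted p = 0.0779 to 0.107 by edgeR), and also with no low-count filter (adjusted p = 0.104 by edgeR) and in a fit of only the libraries compared (adjusted p = 0.0543 by edgeR). The wild-type call was lost without dexamethasone mouse 1, 2 or 4 or PBS mouse 3, 4 or 5 (log2 -0.48 to -0.55, adjusted p = 0.0617 to 0.0909 by edgeR), and also with no low-count filter (adjusted p = 0.0700 by edgeR). Its promoter is the one above with an AGAACA, letters that 16.1% of all windows held. A link between these letters and the fall was not tested.

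Tie1 (chromosome 4, 118328388 to 118347258, minus strand), the co-receptor of Tie2, read 11.9, 13.5, 12.5, 11.0 and 14.0 CPM in knockin dexamethasone, against 15.9, 13.8, 16.2, 12.5 and 16.4 CPM in knockin PBS mice. Wild-type mice had 12.1, 11.4, 12.9, 11.8 and 14.1 CPM under dexamethasone, against 12.2, 15.4, 17.3, 17.1 and 16.8 CPM under PBS. Apart from PBS mouse 1, at 12.2 CPM, every wild-type PBS value exceeded every wild-type dexamethasone value. Tie1 fell by 0.29 on the log2 scale over both genotypes (SE 0.07, adjusted p = 0.00157 by edgeR) and by 0.34 in wild-type mice (SE 0.09, adjusted p = 0.0177 by edgeR). The wild-type call was lost without dexamethasone mouse 2 or PBS mouse 3 or 5 (log2 -0.31, adjusted p = 0.0543 to 0.0581 by edgeR). Of the angiopoietins, Angpt1, which activates Tie2, read 5.16 to 7.01 CPM in the 10 dexamethasone and 4.69 to 8.33 CPM in the 10 PBS libraries (-0.23, SE 0.08, adjusted p = 0.0637 by edgeR). Angpt2, which often opposes it, read 1.36 to 3.15 CPM in the dexamethasone and 1.11 to 3.12 CPM in the PBS libraries (0.12, SE 0.16, adjusted p = 0.698 by edgeR), levels at which 29 to 68 read pairs per library were counted. Angpt1 shares 17.3% of its exonic length with the gene Gm17473.

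The receptors of vascular endothelial growth factor were lower too, by less than Tek, and of them only Flt1 fell by less than Tie1. Flt1 (chromosome 5, 147498414 to 147662821, minus strand), which encodes the decoy-like receptor VEGFR1, read 73.6, 73.1, 72.6, 66.6 and 81.6 CPM in knockin dexamethasone, against 85.1, 78.8, 88.3, 80.5 and 87.0 CPM in knockin PBS mice. Wild-type mice had 69.0, 80.8, 75.8, 64.0 and 86.0 CPM under dexamethasone, against 83.4, 83.0, 80.0, 83.1 and 81.7 CPM under PBS. The wild-type PBS mice lay within 80.0 to 83.4 CPM, while the wild-type dexamethasone mice spread over 64.0 to 86.0 CPM. In knockin mice all dexamethasone values but 1 lay below all PBS values. Flt1 fell by 0.16 on the log2 scale over both genotypes (SE 0.04, adjusted p = 0.00834 by edgeR). In knockin mice it fell by 0.19 (SE 0.06, adjusted p = 0.0411 by edgeR), a call that was lost without dexamethasone mouse 1, 2, 3 or 4 or PBS mouse 1, 3 or 5 (log2 -0.16 to -0.19, adjusted p = 0.0706 to 0.123 by edgeR).

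Kdr (chromosome 5, 76093487 to 76139118, minus strand), which encodes the main signalling receptor VEGFR2, read 16.2, 16.8, 18.9, 12.4 and 21.4 CPM in knockin dexamethasone, against 22.6, 23.5, 22.6, 15.7 and 30.7 CPM in knockin PBS mice. Wild-type mice had 17.7, 19.7, 18.0, 14.9 and 19.3 CPM under dexamethasone, against 18.7, 21.4, 19.6, 29.5 and 24.4 CPM under PBS. The groups overlapped in both genotypes, and the highest PBS values were those of knockin mouse 5 and wild-type mouse 4. Kdr fell by 0.37 on the log2 scale over both genotypes (SE 0.12, adjusted p = 0.0343 by edgeR). This call was lost without knockin dexamethasone mouse 1, 2 or 4, knockin PBS mouse 1, 2, 3 or 5, wild-type dexamethasone mouse 1, 3 or 4 or wild-type PBS mouse 4 or 5 (log2 -0.32 to -0.37, adjusted p = 0.0521 to 0.0620 by edgeR), and also with no low-count filter (adjusted p = 0.0709 by edgeR).

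Eng (chromosome 2, 32536607 to 32572681, plus strand) encodes endoglin, a co-receptor for the transforming growth factor beta family. It read 25.0, 25.2, 23.6, 21.3 and 26.8 CPM in knockin dexamethasone, against 27.6, 29.7, 29.3, 23.1 and 33.1 CPM in knockin PBS mice, and 30.4, 27.7, 22.9, 24.9 and 24.8 CPM in wild-type dexamethasone, against 27.0, 28.3, 28.3, 29.6 and 30.3 CPM in wild-type PBS mice. The highest wild-type value, 30.4 CPM, was that of dexamethasone mouse 1, so the groups overlapped. Eng fell by 0.18 on the log2 scale over both genotypes (SE 0.06, adjusted p = 0.0334 by edgeR), a call that was lost without knockin dexamethasone mouse 3 or 4, knockin PBS mouse 2, 3 or 5, wild-type dexamethasone mouse 3, 4 or 5 or wild-type PBS mouse 4 or 5 (log2 -0.15 to -0.17, adjusted p = 0.0589 to 0.0677 by edgeR), and also with no low-count filter (adjusted p = 0.0808 by edgeR).

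Robo4 (chromosome 9, 37313193 to 37326411, plus strand), an endothelial receptor known to stabilise vessels, went the other way. It read 9.94, 10.8, 9.77, 11.2 and 10.8 CPM in knockin dexamethasone, against 7.23, 9.00, 9.82, 8.61 and 9.49 CPM in knockin PBS mice. Wild-type mice had 12.1, 11.1, 8.54, 10.8 and 10.3 CPM under dexamethasone, against 8.12, 8.47, 8.26, 8.91 and 8.47 CPM under PBS. In wild-type mice only dexamethasone mouse 3 lay within the PBS range, and in knockin mice the groups met only at mouse 3 of each, 9.77 against 9.82 CPM. Robo4 rose by 22.3% over both genotypes, or 0.29 on the log2 scale (SE 0.06, adjusted p = 0.000881 by edgeR), and by 0.32 in wild-type mice (SE 0.09, adjusted p = 0.0176 by edgeR). The wild-type call was lost without dexamethasone mouse 1 or PBS mouse 3 (log2 0.25 to 0.30, adjusted p = 0.0520 to 0.0870 by edgeR), and without the 2 wild-type PBS libraries with liver transcripts (edgeR adjusted p = 0.0784). The growth factor gene Pdgfb kept within 22.0 to 30.2 CPM (-0.02, SE 0.05) and Egfl7, a secreted endothelial protein, within 18.4 to 23.3 CPM (-0.11, SE 0.04).

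Of the 3 endothelial transcription factor genes, Erg was higher under dexamethasone over both genotypes and the SOX factor genes Sox17 and Sox18 did not pass there. Erg (chromosome 16, 95160028 to 95387452, minus strand) is an ETS factor that keeps endothelial genes on. It read 7.42, 6.42, 5.87, 6.70 and 7.14 CPM in knockin dexamethasone, against 6.37, 5.86, 6.37, 6.33 and 5.05 CPM in knockin PBS mice. Wild-type mice had 6.98, 8.18, 7.38, 5.61 and 6.96 CPM under dexamethasone, against 5.27, 5.32, 5.59, 5.10 and 6.74 CPM under PBS. In wild-type mice 4 of 5 dexamethasone values exceeded all 5 PBS values, and in knockin mice 4 of 5 did so as well. Erg was higher by 0.24 on the log2 scale over both genotypes (SE 0.07, adjusted p = 0.0159 by edgeR), which without the 2 liver-transcript libraries became 0.20 (edgeR adjusted p = 0.0687). The wild-type value of 0.32 (edgeR adjusted p = 0.0397) was lost without dexamethasone mouse 1, 2, 3 or 5 or PBS mouse 1, 2, 3 or 4 (log2 0.27 to 0.32, adjusted p = 0.0658 to 0.126 by edgeR), and also with no low-count filter (adjusted p = 0.0665 by edgeR) and in a fit of only the libraries compared (adjusted p = 0.0757 by edgeR).

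Sox17 (chromosome 1, 4561154 to 4567577, minus strand), a factor of arterial endothelium, read 5.87, 5.86, 5.19, 6.84 and 6.20 CPM in knockin dexamethasone, against 5.06, 4.20, 5.15, 3.80 and 5.49 CPM in knockin PBS mice. Wild-type mice had 6.63, 6.84, 5.57, 4.91 and 6.55 CPM under dexamethasone and 5.17, 6.93, 4.89, 6.09 and 5.83 CPM under PBS. The knockin PBS mice averaged lowest of the 4 groups, at 4.74 ± 0.705 CPM, and overlapped the other 3 groups. In knockin mice Sox17 rose by 0.36 on the log2 scale (SE 0.12, adjusted p = 0.0478 by edgeR), a call that was lost without dexamethasone mouse 1, 2, 4 or 5 or PBS mouse 1, 2, 3 or 4 (log2 0.29 to 0.39, adjusted p = 0.0520 to 0.141 by edgeR), and also with DESeq2 size factors (adjusted p = 0.0512 by edgeR) and in a fit of only the libraries compared (adjusted p = 0.0591 by edgeR). The wild-type value was 0.09 (SE 0.11), and the difference between genotypes did not pass (0.27, SE 0.16, adjusted p = 1.00 by edgeR). Sox18 had -0.22 over both genotypes (SE 0.08, adjusted p = 0.0623 by edgeR), with 5.25 to 9.49 CPM in dexamethasone and 7.13 to 10.0 CPM in PBS libraries.

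Of the 4 surface and enzyme genes, Ly6c1 was higher, Itm2a lower, and the endothelial nitric oxide synthase gene Nos3 and the caveolin gene Cav1 did not pass. Ly6c1 (chromosome 15, 74915867 to 74920679, minus strand) encodes a surface antigen that in mouse marks endothelial cells and also some leukocytes. It read 33.1, 35.3, 32.5, 40.8 and 34.4 CPM in knockin dexamethasone, against 21.9, 20.2, 22.2, 27.8 and 22.5 CPM in knockin PBS mice. Wild-type mice had 36.3, 35, 29.3, 32.3 and 28.5 CPM under dexamethasone, against 26.5, 24.8, 19.6, 20.6 and 19.9 CPM under PBS. No dexamethasone library, 28.5 to 40.8 CPM, overlapped a PBS library, 19.6 to 27.8 CPM. Ly6c1 rose by 49.1% over both genotypes, or 0.58 on the log2 scale (SE 0.07, adjusted p = 2.39e-06 by edgeR), with 0.62 in knockin (edgeR adjusted p = 0.000142) and 0.53 in wild-type mice (edgeR adjusted p = 0.000896). It passed under every alternative run. Near-identical Ly6 genes exist, and read pairs that map to more than 1 of them were not counted, so its level is uncertain.

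Itm2a (chromosome X, 106440705 to 106446982, minus strand) read 44.5, 44.6, 45.9, 42.6 and 47.5 CPM in knockin dexamethasone, against 50.8, 45.9, 50.3, 43.4 and 59.1 CPM in knockin PBS mice, and 44.7, 48.8, 49.0, 42.9 and 53.0 CPM in wild-type dexamethasone, against 54.2, 51.6, 51.4, 53.5 and 51.3 CPM in wild-type PBS mice. All but 1 wild-type dexamethasone value lay below all wild-type PBS values. It fell by 0.14 on the log2 scale over both genotypes (SE 0.04, adjusted p = 0.0263 by edgeR), a call that was lost without knockin dexamethasone mouse 4 or wild-type dexamethasone mouse 1 or 4 (log2 -0.12 to -0.13, adjusted p = 0.0513 to 0.0539 by edgeR). Nos3 had -0.05 (SE 0.08) and shares 25.2% of its exonic length with the gene Gm15587, and unstranded counting cannot tell them apart there. Cav1, which encodes the coat protein of caveolae, had -0.09 (SE 0.05, adjusted p = 0.224 by edgeR).

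None of the 4 venous or fenestrated endothelial genes passed over both genotypes by edgeR, DESeq2 or limma-voom, and by edgeR 3 of them had an unadjusted p below 0.05 (Emcn, Plvap and Ackr1). The log2 fold changes were -0.16 (SE 0.07) for the sialomucin gene Emcn, -0.18 (SE 0.13) for Vwf, the clotting factor stored in endothelial granules, -0.19 (SE 0.07) for Plvap, which builds the diaphragms of fenestrae, and -0.11 (SE 0.05) for Ackr1, a chemokine-binding receptor of venules. Vwf ranged 2.24-fold over the libraries, from 20.1 CPM in wild-type dexamethasone mouse 4 to 45.1 CPM in wild-type dexamethasone mouse 2.

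Ackr1 (chromosome 1, 173159457 to 173161240, minus strand) passed in knockin mice. It read 26.8, 24.1, 24.4, 27.0 and 22.9 CPM in knockin dexamethasone, against 29.2, 29.4, 26.1, 33.2 and 25.7 CPM in knockin PBS mice, and 22.7, 24.9, 23.5, 24.1 and 24.2 CPM in wild-type dexamethasone and 26.3, 22.0, 23.3, 24.8 and 24.3 CPM in wild-type PBS mice. The knockin PBS mice averaged highest, led by mouse 4 at 33.2 CPM, and overlapped the groups other than wild-type dexamethasone. The knockin response was -0.20 (SE 0.06, adjusted p = 0.0405 by edgeR), and that call was lost without dexamethasone mouse 2, 3 or 5 or PBS mouse 1, 2 or 4 (log2 -0.14 to -0.20, adjusted p = 0.0800 to 0.156 by edgeR), and also in a fit of only the libraries compared (adjusted p = 0.0677 by edgeR). Ackr1 shares 21.5% of its exonic length with Cadm3, a neuronal adhesion gene on the same strand that read 433 ± 15.5 CPM in knockin dexamethasone and 436 ± 22.3 CPM in knockin PBS mice, and how far Cadm3 transcripts enter the Ackr1 count was not tested.

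Among the 4 pericyte genes, Pdgfrb and Vtn were lower under dexamethasone over both genotypes, Abcc9 was higher, and Rgs5 did not pass. Pdgfrb (chromosome 18, 61178222 to 61218133, plus strand) encodes the receptor through which pericytes are recruited. It read 34.2, 30.0, 28.0, 31.1 and 29.6 CPM in knockin dexamethasone, against 35.6, 36.0, 38.9, 31.8 and 37.5 CPM in knockin PBS mice. Wild-type mice had 29.2, 30.4, 34.1, 30.6 and 36.5 CPM under dexamethasone, against 34.3, 33.6, 39.1, 40.1 and 37.7 CPM under PBS. In each genotype the groups overlapped, knockin through dexamethasone mouse 1 and PBS mouse 4, wild-type through dexamethasone mice 3 and 5. Pdgfrb fell by 0.21 on the log2 scale over both genotypes (SE 0.05, adjusted p = 0.00201 by edgeR), a call that held under every alternative run. The knockin value alone was -0.22 (edgeR adjusted p = 0.0326), and that call was lost without dexamethasone mouse 2, 3, 4 or 5 or PBS mouse 1, 2, 3 or 5 (log2 -0.19 to -0.22, adjusted p = 0.0555 to 0.110 by edgeR), and also by limma-voom (adjusted p = 0.0537).

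Vtn (chromosome 11, 78389946 to 78393150, plus strand), which encodes vitronectin, read 55.9, 50.1, 54.1, 68.5 and 61.9 CPM in knockin dexamethasone, against 70.1, 64.3, 67.7, 68.1 and 79.0 CPM in knockin PBS mice. Wild-type mice had 56.4, 60.7, 81.5, 56.7 and 73.7 CPM under dexamethasone, against 76.8, 80.6, 76.5, 84.1 and 74.2 CPM under PBS. The wild-type PBS mice lay within 74.2 to 84.1 CPM, and of the wild-type dexamethasone mice only mouse 3, at 81.5 CPM, reached that range, with mouse 5 just below it at 73.7 CPM. Vtn fell by 0.25 on the log2 scale over both genotypes (SE 0.07, adjusted p = 0.0169 by edgeR). Liver also makes vitronectin: wild-type PBS mice 1 and 2, with liver marker sums of 225 and 126 CPM, read 76.8 and 80.6 CPM for Vtn, and the call passed without them. It was lost without the 2 libraries with choroid plexus transcripts (log2 -0.22, edgeR adjusted p = 0.0542).

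Abcc9 (chromosome 6, 142533588 to 142648041, minus strand) encodes SUR2, the regulatory subunit of the potassium channel by which pericytes sense metabolic state. It read 13.5, 16.9, 12.5, 15.8 and 14.5 CPM in knockin dexamethasone, against 10.3, 9.65, 12.6, 13.8 and 12.9 CPM in knockin PBS mice. Wild-type mice had 14.3, 15.6, 14.0, 13.3 and 13.5 CPM under dexamethasone, against 10.4, 10.3, 13.1, 14.2 and 11.9 CPM under PBS. The groups overlapped in both genotypes, and the lowest values were those of PBS mice 1 and 2 in each. Abcc9 rose by 21.5% over both genotypes, or 0.28 on the log2 scale (SE 0.07, adjusted p = 0.00549 by edgeR), and passed under every alternative run of that comparison. The knockin value alone was 0.31 (edgeR adjusted p = 0.0463), and that call was lost without dexamethasone mouse 2, 4 or 5 or PBS mouse 1, 2 or 3 (log2 0.25 to 0.34, adjusted p = 0.0542 to 0.150 by edgeR), and also in a fit of only the libraries compared (adjusted p = 0.0867 by edgeR). Its channel partner Kcnj8 did not pass (-0.14, SE 0.10).

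Rgs5 (chromosome 1, 169483070 to 169523382, plus strand) read 147, 156, 157, 123 and 156 CPM in knockin dexamethasone and 159, 164, 168, 129 and 164 CPM in knockin PBS mice. Wild-type mice had 154, 160, 140, 160 and 153 CPM under dexamethasone and 172, 154, 185, 169 and 155 CPM under PBS. Mouse 4 was low in both knockin groups, and the groups overlapped. The log2 fold change over both genotypes was -0.10 (SE 0.05, adjusted p = 0.211 by edgeR).

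The call of the 3 smooth muscle genes depended on the tool. By edgeR none passed in any comparison, with Acta2 and Myl9 at an unadjusted p below 0.05 over both genotypes. DESeq2 called both over both genotypes and limma-voom called Acta2 there, and both tools called both genes in knockin mice. Acta2 (chromosome 19, 34218490 to 34232990, minus strand) encodes the actin of vascular smooth muscle. It read 12.2, 12.2, 13.0, 19.7 and 20.8 CPM in knockin dexamethasone, against 28.7, 24.2, 20.4, 21.0 and 39.2 CPM in knockin PBS mice. Wild-type mice had 15.2, 17.0, 31.1, 19.4 and 29.1 CPM under dexamethasone, against 27.1, 28.2, 16.5, 30.5 and 28.4 CPM under PBS. In knockin mice only dexamethasone mouse 5 reached the PBS range, by a small margin, while the wild-type groups overlapped widely. The log2 fold change was -0.48 over both genotypes (SE 0.18, adjusted p = 0.0775 by edgeR), -0.76 in knockin (SE 0.25, adjusted p = 0.0747 by edgeR) and -0.20 in wild-type mice (SE 0.25, adjusted p = 0.746 by edgeR). DESeq2 gave -0.50 (DESeq2 adjusted p = 0.0310) over both genotypes and limma-voom -0.52 (limma-voom adjusted p = 0.0143). In knockin mice DESeq2 gave -0.78 (DESeq2 adjusted p = 0.0235) and limma-voom -0.83 (limma-voom adjusted p = 0.00837). Myl9, a myosin light chain, had -0.22 (SE 0.09) and Tagln, which encodes the actin-binding protein transgelin, -0.07 (SE 0.17), at 14 to 43 read pairs per library. Tagln shares 55.0% of its exonic length with the gene Gm48529.

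Summed over the 28 endothelial members, the level was 632 ± 18.5 CPM in knockin dexamethasone against 701 ± 31.7 CPM in knockin PBS mice, and 663 ± 39.0 CPM in wild-type dexamethasone against 696 ± 20.4 CPM in wild-type PBS mice (SD, n = 5). The 7 mural members summed to 282 ± 10.7 CPM in knockin dexamethasone against 321 ± 27.6 CPM in knockin PBS mice, and to 308 ± 18.5 CPM in wild-type dexamethasone against 342 ± 14.6 CPM in wild-type PBS mice. Over the 20 libraries Tjp1, which many cell types use, made up 126 CPM of the mean endothelial sum of 673 CPM. Rgs5 made up 156 CPM of the mean mural sum of 313 CPM. Neither gene passed over both genotypes by edgeR. The knockin groups did not overlap for the endothelial sum and overlapped for the mural sum through PBS mouse 4. The wild-type groups overlapped for the endothelial sum and met for the mural sum without overlap, at 327 CPM in each. The 3 smooth muscle members summed to 26.6 to 39.4 CPM in knockin dexamethasone, 38.1 to 65.5 in knockin PBS, 31.6 to 57.5 in wild-type dexamethasone and 34.5 to 54.6 CPM in wild-type PBS mice. In 3 of the 4 groups the mouse with the highest smooth muscle sum also had the highest sum of the 8 meningeal fibroblast markers: 65.5 and 144 CPM in knockin PBS mouse 5, 57.5 and 193 CPM in wild-type dexamethasone mouse 3, and 54.6 and 157 CPM in wild-type PBS mouse 4. Of those 8 markers, which include the collagen genes Col1a1 and Col1a2 and the proteoglycan gene Dcn, none passed over both genotypes by edgeR, and Col3a1 and Lum had an unadjusted p below 0.05. They averaged from 2.97 CPM (Igf2) to 47.5 CPM (Dcn). The part of attached meningeal tissue in the smooth muscle values was not tested. Microglial markers summed to 318 ± 11.7 CPM in the 10 dexamethasone and 357 ± 18.7 CPM in the 10 PBS libraries. Of the 5 markers, Cx3cr1 and P2ry12 were lower and Tmem119 higher over both genotypes by edgeR, with a median log2 fold change of 0.00.

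**Figure D4:**
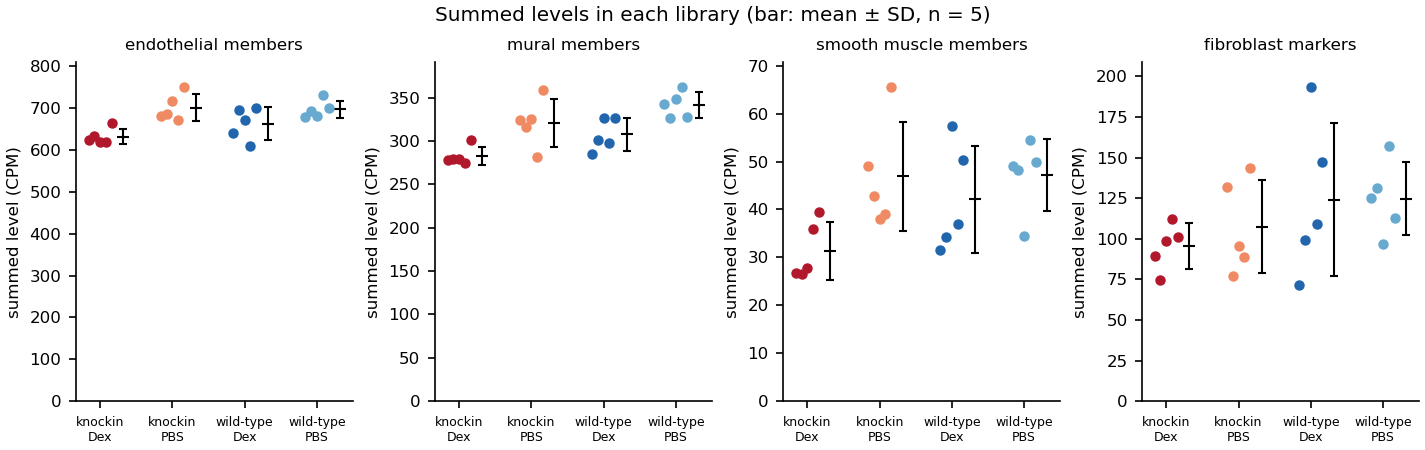
Summed level in CPM per library of the 28 endothelial members, the 7 mural members, the 3 smooth muscle members among them and 8 meningeal fibroblast markers, with the mean and SD of each group of 5. The endothelial and mural sums are lower on average under dexamethasone in both genotypes, and the highest fibroblast sum, 193 CPM, is that of wild-type dexamethasone mouse 3.

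The second question was whether the receptor form changes the vessel wall genes. No member passed by edgeR between knockin and wild-type mice under PBS, under dexamethasone, or in the difference of the dexamethasone responses, and 0% of all genes passed in each of the 3 comparisons. DESeq2 and limma-voom called no member either. For no member did the genotypes separate without overlap under PBS or under dexamethasone, as 0.67% and 0.788% of all genes did. At an unadjusted p below 0.05 there were 2 members under PBS, 5 under dexamethasone and 1 in the difference of the responses, against 3.61%, 4.44% and 2.83% of all genes. Under PBS these were Ackr1, at 0.26 (SE 0.06, adjusted p = 0.833 by edgeR), and Sox17, at -0.30 (SE 0.12, adjusted p = 1.00 by edgeR). Under dexamethasone all 5 had negative values, knockin relative to wild-type: Myl9 with -0.34 (SE 0.13), Sox18 with -0.25 (SE 0.12), Cdh5 with -0.23 (SE 0.09), Pecam1 with -0.15 (SE 0.06) and Tjp1 with -0.08 (SE 0.04), each at an edgeR adjusted p of 1.00. Under dexamethasone 27 of 35 members were below 0 in knockin relative to wild-type mice, against 50% of all genes, with a median of -0.09. Under PBS 21 members were below 0, against 49.5%, and in the difference of the responses 25, against 50.6%. The comparison under dexamethasone and the difference of the responses share libraries, so Tjp1, the member at unadjusted p below 0.05 in that difference with -0.11 (SE 0.05), is not a separate result. A p above the threshold does not show that the genotypes respond alike: the largest differences of response in size were those of Acta2, -0.56 (SE 0.36), and Vwf, -0.45 (SE 0.26).

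Other genes of the vessel wall, from lists of further junction, receptor, ligand, transport, matrix and mural genes, were read the same way, and up to 3 called genes of largest size in each list are named. Of 13 barrier transporter genes 6 were higher and 4 lower under dexamethasone over both genotypes, by edgeR as for all the counts that follow, which are to be read against 9.79% of all genes higher and 8.41% lower. The lipid transporter gene Mfsd2a was higher by 2.11 (SE 0.06, adjusted p = 9.45e-18 by edgeR), at 58.4 ± 3.91 CPM in knockin dexamethasone against 13.0 ± 0.613 CPM in knockin PBS mice, and the glucose transporter gene Slc2a1 by 1.21 (SE 0.11). The amino acid transporter gene Slc38a5 fell by 1.65 (SE 0.13). Of 13 other junction genes, 3 were lower and none was higher. Among the lower were F11r, which encodes junctional adhesion molecule A, at -0.30 (SE 0.07), and its relative Jam2 at -0.13 (SE 0.04).

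Of 18 other vascular receptor genes 2 were higher and 4 lower, against the same 9.79% and 8.41% of all genes. The apelin receptor gene Aplnr fell by 1.57 (SE 0.25) and the sphingosine-1-phosphate receptor gene S1pr1, which astrocytes use too, by 0.75 (SE 0.06). Fzd4, the endothelial receptor for norrin and Wnt signals that build the barrier, was higher by 0.87 (SE 0.11). Of 15 angiogenic ligand genes 3 were higher and 7 lower. Ndp, which encodes norrin, the ligand of Fzd4, fell by 1.06 (SE 0.10), at 3.43 ± 0.719 CPM in knockin dexamethasone against 7.45 ± 0.582 CPM in knockin PBS mice, and 3.95 ± 0.815 CPM in wild-type dexamethasone against 7.90 ± 1.46 CPM in wild-type PBS mice. The lymphatic growth factor gene Vegfc fell by 0.79 (SE 0.12) and the lipase inhibitor gene Angptl4 higher by 0.83 (SE 0.18). Ligand and receptor of the norrin pathway thus had opposite signs, while the angiopoietin ligands did not pass and their receptors were lower. The main ligand of Kdr and Flt1, Vegfa, did not pass (-0.07, SE 0.05).

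Against those shares of all genes, 4 of 18 further endothelial genes were higher and 6 lower, with the largest changes in the surface protein genes Mmrn2 (-0.99, SE 0.08), Icam2 (-0.74, SE 0.12) and Podxl (-0.71, SE 0.09). Of 12 vessel matrix genes 4 were higher and 2 lower: the basement membrane gene Nid2 fell by 0.65 (SE 0.13), the laminin gene Lama4 by 0.49 (SE 0.08) and the collagen IV gene Col4a1 higher by 0.53 (SE 0.07). Of 16 other vascular transcription factor genes 3 were higher and 3 lower, with Gata2 at 0.39 (SE 0.09), Tal1 at -0.29 (SE 0.10) and the ETS factor gene Elk3 at -0.29 (SE 0.06). Of 16 other mural genes 4 were lower and none higher. The 3 largest calls were Ndufa4l2 at -0.34 (SE 0.10), Notch3, the receptor by which mural cells sense endothelial Notch ligands, at -0.29 (SE 0.07), and Atp13a5, a pericyte-enriched transporter gene, at -0.27 (SE 0.06). Of the 6 leukocyte adhesion genes 5 were tested, and 1 passed, the E-selectin gene Sele (-3.08, SE 0.91, adjusted p = 0.0245 by edgeR), which was low and ran over 0 to 0.156 CPM in knockin dexamethasone, 0.0871 to 5.45 in knockin PBS, 0.0341 to 0.383 in wild-type dexamethasone and 0 to 0.761 CPM in wild-type PBS mice. The median log2 fold change ran from -0.15 for other mural genes and for angiogenic ligands to 0.08 for barrier transporters, against 0.00 over all genes.

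**Figure D5:**
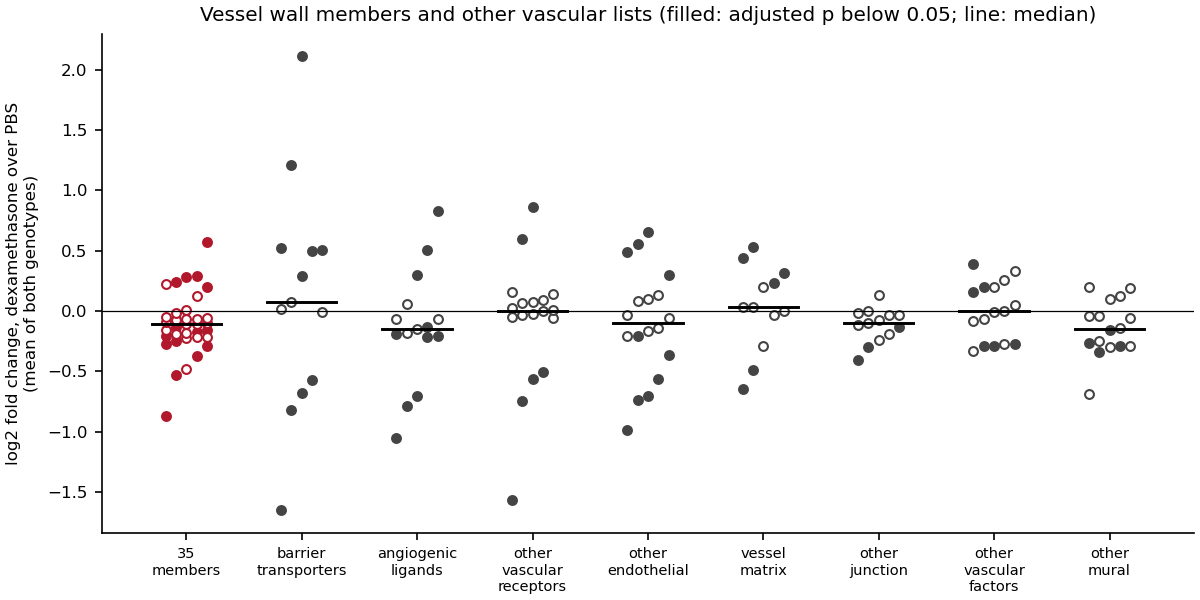
Log2 fold change of dexamethasone over PBS, mean of both genotypes, for the 35 members (red) and 8 lists of other vascular genes; each point is a gene, filled where adjusted p was below 0.05, and lines are medians. The members span -0.87 to 0.58, while barrier transporters reach from -1.65 to 2.11.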

How the data were processed

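Poly(A) RNA of the hippocampus was sequenced with 75-base read pairs, per the labels. What the authors deposited are counts, whole numbers of read pairs for each gene, made with featureCounts 2.0.6 on the GENCODE vM34 basic annotation, per the file headers, with no strand or multi-mapping option in the recorded command. The submitters' processing notes name STAR 2.5.1, Subread 1.5.1, DESeq2 1.38.3 and the build mm39. Since strand was not used, overlapping genes cannot be told apart where they overlap.

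The filter filterByExpr, set to a count of 10 and a total of 15, left 18648 genes. A quasi-likelihood model of all 4 groups with 16 residual degrees of freedom was fitted in edgeR 4.0.16 (R 4.3.3) with TMM factors, and 6 contrasts were tested with Benjamini-Hochberg adjustment over all genes tested. The dexamethasone response over both genotypes is the mean of the knockin and wild-type responses. Totals of 11493014 to 48267708 pairs set the precision. DESeq2 1.42.0, limma-voom (limma 3.58.1), other scalings and filters, a replicate block and leaving out each library were tried. The fits were tested on simulated counts with the same spread set for every gene. More variable members, such as Acta2 with a within-group coefficient of variation of 28.0%, were not covered by that setting. Symbols matched 51884 of 57126 identifiers. Members were listed by name, and up to 3 called genes of largest size were named from the other lists. One such gene is not reported here. Members and lists were chosen with earlier results of these data known. Each library was taken as 1 mouse, and all values rest on these mice only.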

Additional observations from a re-analysis of the deposited data

Results flagged for a closer look

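Of 140 sets of 5 values, 1 per member and group, 6 had an extreme value far from the other 4 by Dixon's test, in 4 genes and 5 libraries. Chance alone flags about 1 in 20 such sets, and no cause was tested.

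For Mcam, knockin PBS mouse 3 was high at 31.9 CPM beside 23.1 to 25.3 CPM in the other 4 mice, and wild-type PBS mouse 2 was low at 21.7 CPM beside 25.9 to 27.3 CPM. Both values remained above every dexamethasone library. For Rgs5, mouse 4 was low in both knockin groups, at 123 CPM under dexamethasone beside 147 to 157 CPM and at 129 CPM under PBS beside 159 to 168 CPM. The nitric oxide synthase gene Nos3 was low in the same knockin PBS mouse 4, at 6.85 CPM beside 8.83 to 9.61 CPM. Acta2 was low in wild-type PBS mouse 3, at 16.5 CPM beside 27.1 to 30.5 CPM.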

How the results depend on the processing

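Of 32 gene calls, 15 passed in every alternative and 0 reversed. Over 743 recomputed values 612 kept their call and 131 lost it. The count of members called over both genotypes ran from 12 to 20 when 1 library was left out, the knockin count from 4 to 13 and the wild-type count from 2 to 7. All genes called ran from 2966 to 3480 over both genotypes, 1501 to 1955 in knockin and 1288 to 1692 in wild-type mice. Fitting only the libraries compared gave 7 knockin calls, where 1701 of 17917 genes passed. Without wild-type PBS mouse 4 and knockin dexamethasone mouse 2, the libraries with choroid plexus transcripts, there were 3 wild-type and 4 knockin calls. Of all 19055 genes tested there, 1439 and 1485 passed. DESeq2 gave 15 knockin calls and limma-voom 16, and each gave 17 over both genotypes. Of all 18648 genes DESeq2 called 2003 in knockin and 3425 over both genotypes, and limma-voom 2034 and 3422.

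Little pairing by replicate number was seen: of 20 same-numbered pairs 4 correlated above 0.1, over -0.11 to 0.25, and 4 correlated best with their own number. The highest correlation, 0.25, was that of mouse 4 in the knockin dexamethasone and knockin PBS groups, where the best other number gave 0.028. With the replicate number as a block, the model called 5 members in wild-type, 11 in knockin and 16 over both genotypes, and 0 in the genotype comparisons and in the difference of the responses by edgeR. Of all 18648 genes it called 1643 in wild-type, 1843 in knockin and 3367 over both genotypes. The block ended the calls of Erg in wild-type (edgeR adjusted p = 0.0588) and Sox17 in knockin mice (edgeR adjusted p = 0.0595). The genotype comparisons kept 0 member calls under every alternative, with 2, 5 and 1 at an unadjusted p below 0.05 in the main model. Depth limits Tagln and Angpt2, with 14 to 43 and 29 to 68 read pairs per library.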
